A study of Mus musculus with 40 samples.

Results

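The 10 genes described here encode the enzymes that cycle the sugar O-GlcNAc on and off proteins and those that make or salvage its donor, UDP-GlcNAc. They were chosen by symbol for these roles, with earlier results of these data known. Oga and Ogt stand for cycling, Gfpt1, Gfpt2, Gnpnat1, Pgm3, Uap1 and Uap1l1 for synthesis, and Nagk and Amdhd2 for the salvage and removal of intermediates. All 10 were found, each as 1 row, among the 22676 genes of the table. All 10 passed the filter on low values, which left 16395 genes for testing.

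Bulk RNA sequencing was carried out on the left ventricle of FVB/NJ mice, and the 40 libraries crossed genotype, surgery and sex. ONOFF mice carried an inducible, heart-restricted dominant-negative OGA, and Con mice were the controls. Both genotypes received doxycycline food for 2 weeks and then standard chow. Pressure overload by transverse aortic constriction (TAC), or a sham operation, followed 2 weeks after the switch, and tissue was taken after a further 9 weeks. The conditions ONOFF TAC, ONOFF Sham, Con TAC and Con Sham held 10 libraries each, labelled as 5 from females and 5 from males. The promoter that drives the transgene, any transgenes of the Con mice and the ages are not given in the labels. The design asks whether an induction of dominant-negative OGA, with doxycycline withdrawn before surgery, alters the ventricle with and without overload. It is read here on the genes of the O-GlcNAc pathway.

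O-GlcNAc is a single sugar that OGT attaches to serine and threonine residues of nuclear, cytosolic and mitochondrial proteins and that OGA removes. Its donor comes from the hexosamine pathway, which branches from glycolysis at fructose 6-phosphate and draws on glutamine, acetyl-CoA and uridine nucleotides. In the heart the modification is known for its response to pressure overload and to diabetes.

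The deposited normalized counts summed to between 35176220 and 47653987 per library, and the depth before normalization is unknown. Values of 1 gene can be compared between libraries, but not levels of different genes, since gene length was not taken out. Replicates 3 and 5 of Con Sham females and replicate 4 of Con Sham males listed 5782 to 6920 genes at 0, against 2635 to 4594 in the other 37 libraries. Replicates 2 and 3 of Con TAC females had 6.72 to 51.7 normalized counts of Xist, against 1123 to 3274 in the 18 other female libraries. The 20 male libraries had 2.61 to 87.7, so both lay within the male range and their sex labels are in doubt. All 5 were kept, and results that move without them are named. The summed values of 6 cardiomyocyte markers ran from 1498180 to 3457520 over all libraries, while 3 atrial markers summed to between 67.2 and 25989.6, and 3 skeletal muscle markers reached 2106 in 1 Con TAC library against at most 19.1 in the other conditions. In bulk tissue, fewer cells of a type and less RNA per cell cannot be told apart. The labels do not say how the mice were allotted, so p-values measure the spread among these libraries.

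Promoter letters are shown for 3 genes picked by their correlations inside the groups of these data, not by changes between conditions. Gfpt1 and Gfpt2 encode forms of the same first enzyme, with r = −0.08 between them inside the groups (−0.601 in ONOFF Sham to 0.35 in Con Sham). For Gfpt2 and Uap1, the first and last steps of synthesis, r was 0.79. The windows run from 250 bases before to 50 bases after the annotated start and are RefSeq sequence on GRCm38.p6, a different build from the deposited values. Capitals mark matches, on either strand, to GGGCGG (the GC box) or CCAAT.
Gfpt2: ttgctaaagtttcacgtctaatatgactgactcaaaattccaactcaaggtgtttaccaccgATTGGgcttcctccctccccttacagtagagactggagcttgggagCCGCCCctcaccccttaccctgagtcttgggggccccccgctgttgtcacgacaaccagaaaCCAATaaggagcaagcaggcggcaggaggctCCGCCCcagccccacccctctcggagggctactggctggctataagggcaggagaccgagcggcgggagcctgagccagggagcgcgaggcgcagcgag
Uap1: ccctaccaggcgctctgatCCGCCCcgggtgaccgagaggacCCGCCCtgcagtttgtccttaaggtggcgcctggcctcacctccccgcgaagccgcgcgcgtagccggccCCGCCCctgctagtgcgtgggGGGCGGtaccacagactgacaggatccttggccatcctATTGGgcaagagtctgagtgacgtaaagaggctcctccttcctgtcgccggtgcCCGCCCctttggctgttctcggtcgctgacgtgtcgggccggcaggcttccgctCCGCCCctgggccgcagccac
Gfpt1: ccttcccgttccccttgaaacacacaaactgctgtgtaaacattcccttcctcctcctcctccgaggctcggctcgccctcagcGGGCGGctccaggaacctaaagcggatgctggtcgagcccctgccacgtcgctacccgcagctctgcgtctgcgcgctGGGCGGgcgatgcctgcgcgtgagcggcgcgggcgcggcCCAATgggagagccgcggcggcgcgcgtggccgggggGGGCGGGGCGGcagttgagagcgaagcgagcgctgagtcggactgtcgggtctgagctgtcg
The Gfpt2 window lies at chr11:49793905-49794204 on the plus strand, that of Uap1 at chr1:170174915-170175214 on the minus strand, and that of Gfpt1 at chr6:87042596-87042895 on the plus strand. The table held 9 such windows for 8 of the 10 genes. GGGCGG was found 2 times in the Gfpt2 window, 6 times in that of Uap1 and 4 times in that of Gfpt1, where the last pair overlap by 1 base. CCAAT was found 2, 1 and 1 times in the same windows. Of 32851 promoter windows, 35.7% hold GGGCGG and 37.4% hold CCAAT. None of the members' windows held TATAAA (13.6% of all windows) or the cyclic AMP element TGACGTCA (1.79%). These matches describe the letters and say nothing of binding.

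Oga (ENSMUSG00000025220), the hydrolase that takes O-GlcNAc off proteins, varied most across the conditions. Its lowest, median and highest values were 3058, 3537 and 5579.8 normalized counts in ONOFF TAC ventricles. They were 3019, 5927 and 8294 in ONOFF Sham, 2195, 3073 and 3386 in Con TAC, and 2644, 3182 and 3507 in Con Sham. In ONOFF Sham, 9 of 10 libraries lay above the highest Con Sham library, and female replicate 1 lay inside the Con Sham range. In ONOFF TAC, 7 of 10 libraries lay above the highest Con TAC library and none lay below the lowest.

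In sham mice the ONOFF minus Con change of Oga was 0.83 on the log2(value + 1) scale (SE 0.117, a 1.77-fold difference, limma adjusted p = 0.000295, higher in 9 of 10 libraries), and Oga had the smallest p of all genes tested. It was the 1 gene of the 10 called in this comparison, in which 0.14% of all genes tested were called. After TAC, Oga was lower in ONOFF mice than in ONOFF Sham by 0.56 (log2 change −0.56 with an SE of 0.117, adjusted p = 0.000413, lower in 9 of 10 libraries), a change called for 21.2% of all genes. ONOFF TAC exceeded Con TAC by 0.34 (SE 0.117, adjusted p = 0.0645, higher in 10 of 10), and Con TAC differed from Con Sham by −0.07 (adjusted p = 0.803, lower in 5 of 10). Neither difference passed. The interaction, the TAC change in ONOFF minus that in Con mice, was −0.49 (SE 0.165, unadjusted p = 0.00537, adjusted p = 0.192) and did not pass. These comparisons share libraries, so they are not independent of each other. The table gives 1 Oga value per library, so transgene and endogenous transcripts cannot be told apart.

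**Figure D1:**
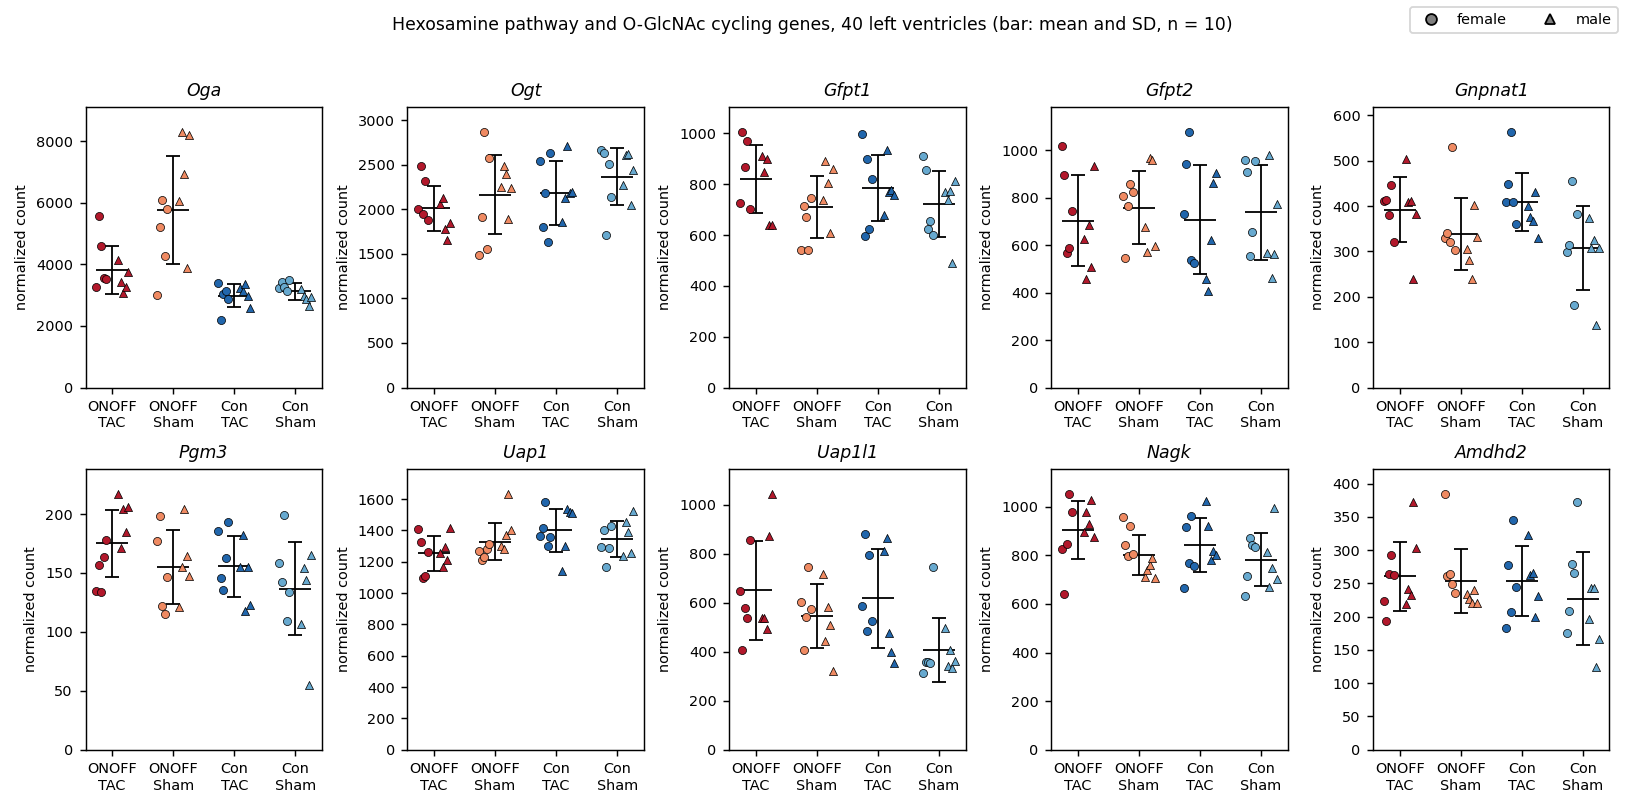
Normalized counts of the 10 genes in each library (points) for the 4 conditions, with mean and SD (n = 10 each) and both sexes marked. Oga stands higher and more widely spread in ONOFF Sham (mean 5778) than in the other conditions (3816 in ONOFF TAC, 2988 in Con TAC, 3121 in Con Sham), and the ranges of the other genes overlap between conditions.

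Within ONOFF Sham the values are given by sex, and those of males and females overlapped. Oga was 6046, 8294, 6925, 3878 and 8214 normalized counts in ONOFF Sham males, and 3019, 5222, 6102, 4270.5 and 5808 in ONOFF Sham females. Con Sham males averaged 2931 ± 207 and Con Sham females 3311 ± 149 (SD, n = 5 each), so every ONOFF Sham male exceeded every Con Sham male, and 4 of 5 ONOFF Sham females exceeded the highest Con Sham female. The ONOFF minus Con change in sham mice was 1.14 in males (SE 0.165, adjusted p = 0.00055), where 0.0183% of genes were called, and 0.52 in females (SE 0.165, adjusted p = 0.545), where 0% were called. After TAC, Oga in ONOFF mice was lower by 0.88 in males (log2 change −0.88, SE 0.165, adjusted p = 0.000237) and differed by −0.24 in females (SE 0.165, adjusted p = 0.398), where 10.8% of all genes were called. The male minus female difference of these changes was 0.62 for genotype in sham mice (SE 0.233, unadjusted p = 0.0115, adjusted p = 0.979). It was −0.64 for TAC in ONOFF mice (SE 0.233, unadjusted p = 0.00932, adjusted p = 0.816). Neither passed, and limma called 0% of all genes in any of the 4 comparisons of the sexes. Of the 10 genes, 2 had an unadjusted p below 0.05 in the sex difference of TAC in ONOFF mice (Oga and Nagk), 1 in that of genotype in sham mice (Oga), and 0 in the other 2 comparisons, against 5.26%, 3.12%, 3.29% (TAC in Con mice) and 4% (genotype after TAC) of all genes.

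Ogt (ENSMUSG00000034160), the transferase that adds the sugar, was called in no comparison of conditions. Its lowest, median and highest values were 1658, 1980.5 and 2490.1 in ONOFF TAC, 1491, 2247 and 2864 in ONOFF Sham, 1633, 2183 and 2713 in Con TAC, and 1716, 2473 and 2671 in Con Sham. The ranges overlapped in every comparison. The ONOFF minus Con change was −0.14 in sham mice (95% interval −0.36 to 0.07, adjusted p = 0.77) and −0.11 after TAC (−0.32 to 0.10, adjusted p = 0.622). The TAC change was −0.09 in ONOFF mice (−0.30 to 0.13, adjusted p = 0.633) and −0.12 in Con mice (−0.33 to 0.09, adjusted p = 0.576).

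The log2 ratio of Oga to Ogt within a library is affected by gene length and is read only between libraries. This ratio of RNA levels includes any transgene reads counted as Oga and is no measure of enzyme activity. It averaged 0.91 ± 0.21 in ONOFF TAC, 1.38 ± 0.29 in ONOFF Sham, 0.46 ± 0.25 in Con TAC and 0.41 ± 0.24 in Con Sham (SD, n = 10 each). The lowest ONOFF Sham ratio, 1.02, lay above the highest Con Sham ratio, 0.92, so these groups did not overlap. How many ratios of all gene pairs separate so was not counted, so whether this is unusual is unknown. Oga alone and Ogt alone did overlap, although 9 of 10 ONOFF Sham libraries lay above the highest Con Sham library for Oga. The ratios of Gfpt2 to Gfpt1, Uap1l1 to Uap1 and Amdhd2 to Gfpt1 overlapped between ONOFF Sham and Con Sham. ONOFF TAC ratios ran from 0.62 to 1.23 and overlapped those of Con TAC, 0.13 to 0.94.

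Synthesis begins with glutamine:fructose-6-phosphate transaminase, the rate-limiting enzyme, encoded by Gfpt1 and Gfpt2. Gfpt1 (ENSMUSG00000029992) averaged 821 ± 134 normalized counts in ONOFF TAC, 712 ± 123 in ONOFF Sham, 785 ± 131 in Con TAC and 723 ± 130 in Con Sham (SD, n = 10 each), and its full range was 491 to 1004.5. Its TAC change was 0.21 in ONOFF mice (SE 0.111, 95% interval −0.02 to 0.43, adjusted p = 0.196, higher in 8 of 10) and 0.12 in Con mice (SE 0.111, −0.10 to 0.35, adjusted p = 0.59, higher in 7 of 10). Neither passed. In ONOFF females the TAC change was 0.41 (SE 0.157, unadjusted p = 0.013, adjusted p = 0.0887), also short of the threshold.

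Gfpt2 (ENSMUSG00000020363), the second form of the enzyme, averaged 702 ± 191 in ONOFF TAC, 756 ± 154 in ONOFF Sham, 706 ± 230 in Con TAC and 737 ± 201 in Con Sham (SD, n = 10 each). Single libraries ran from 457 to 1018 in ONOFF TAC and from 406 to 1075 in Con TAC, wider than any difference between the means. All 5 comparisons that average the sexes gave changes between −0.13 and 0.06, none called. The 95% interval of the TAC change was −0.47 to 0.22 in ONOFF mice and −0.43 to 0.26 in Con mice.

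Gnpnat1 (ENSMUSG00000037722) encodes the acetyltransferase of the second step, which makes GlcNAc 6-phosphate. Its lowest, median and highest values were 239, 409 and 504 in ONOFF TAC, 240.1, 326 and 529.5 in ONOFF Sham, 331, 405 and 563 in Con TAC, and 137, 311 and 456 in Con Sham. Con TAC and Con Sham overlapped, although each Con TAC library exceeded the Con Sham mean of its sex. The TAC change was 0.46 in Con mice (SE 0.153, 95% interval 0.15 to 0.77, adjusted p = 0.0636, higher in 10 of 10) and 0.22 in ONOFF mice (SE 0.153, adjusted p = 0.355, higher in 8 of 10). Neither passed, and without the 3 Con Sham libraries with many zeros the change in Con mice was called.

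Pgm3 (ENSMUSG00000056131), the mutase that moves the phosphate of GlcNAc 6-phosphate to position 1 of the sugar, averaged 175 ± 28.7 in ONOFF TAC, 155 ± 31.2 in ONOFF Sham, 156 ± 26.1 in Con TAC and 137 ± 39.3 in Con Sham (SD, n = 10 each). The ranges overlapped, and the 4 changes between conditions, 0.17 to 0.24, all had adjusted p of at least 0.397.

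The last step joins GlcNAc 1-phosphate to UTP and is catalysed by the product of Uap1 (ENSMUSG00000026670). Uap1 was the steadiest of the 10 genes: its residual SD within groups, 0.13 on the log2 scale, stood at percentile 5.09 of all genes tested. Its lowest, median and highest values were 1095, 1259.8 and 1413 in ONOFF TAC, 1209.8, 1291 and 1629.97 in ONOFF Sham, 1141, 1389.9 and 1581 in Con TAC, and 1164, 1343 and 1524 in Con Sham. After TAC, ONOFF was below Con by 0.16 (log2 change −0.16 with an SE of 0.0633, unadjusted p = 0.0159, adjusted p = 0.121, lower in 8 of 10), which did not pass. Its other changes between conditions were −0.08 to 0.06.

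Uap1l1 (ENSMUSG00000026956), a relative of Uap1 whose role is less settled, had its lowest median in Con Sham. Its lowest, median and highest values were 408, 559 and 1041 in ONOFF TAC, 323, 559 and 745 in ONOFF Sham, 353, 556 and 881 in Con TAC, and 313, 359 and 746 in Con Sham. In Con Sham, 1 library (female replicate 5, 746) stood far above the other 9, which reached at most 495. The TAC change in Con mice was 0.58 (SE 0.180, a 1.49-fold difference, adjusted p = 0.0479, higher in 9 of 10) and was called. It was the 1 called gene of the 10, against 5.78% of all genes tested. The call was lost in 23 of 40 omissions of a single library, in which the change stayed between 0.49 and 0.69. It was also lost without the 2 Con TAC female libraries poor in Xist. The TAC change in ONOFF mice was 0.24 (SE 0.180, adjusted p = 0.391), the ONOFF minus Con change was 0.43 in sham mice (SE 0.180, unadjusted p = 0.0229, adjusted p = 0.476) and 0.09 after TAC (adjusted p = 0.854). The interaction, −0.34 (SE 0.255, adjusted p = 0.672), did not pass, so the TAC changes of both genotypes were not shown to differ.

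Nagk (ENSMUSG00000034744), the kinase that returns free GlcNAc to the pathway, averaged 904 ± 119 in ONOFF TAC, 803 ± 83.1 in ONOFF Sham, 842 ± 110 in Con TAC and 783 ± 110 in Con Sham (SD, n = 10 each). In ONOFF mice the TAC change was 0.17 (SE 0.0831, unadjusted p = 0.0524, adjusted p = 0.162, higher in 7 of 10). In ONOFF males alone it was 0.34 (SE 0.118, adjusted p = 0.0496) and was called, so 2 of the 10 genes, Oga and Nagk, were called in a comparison that called 11.8% of all genes. The male minus female difference was 0.35 (SE 0.166, adjusted p = 0.816).

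Amdhd2 (ENSMUSG00000036820) encodes the deacetylase that reverses the Gnpnat1 step. It averaged 261 ± 52.0 in ONOFF TAC, 254 ± 48.2 in ONOFF Sham, 254 ± 52.5 in Con TAC and 227 ± 70.0 in Con Sham (SD, n = 10 each). Its 4 changes between conditions ran from 0.03 to 0.20, and none was called.

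**Figure D2:**
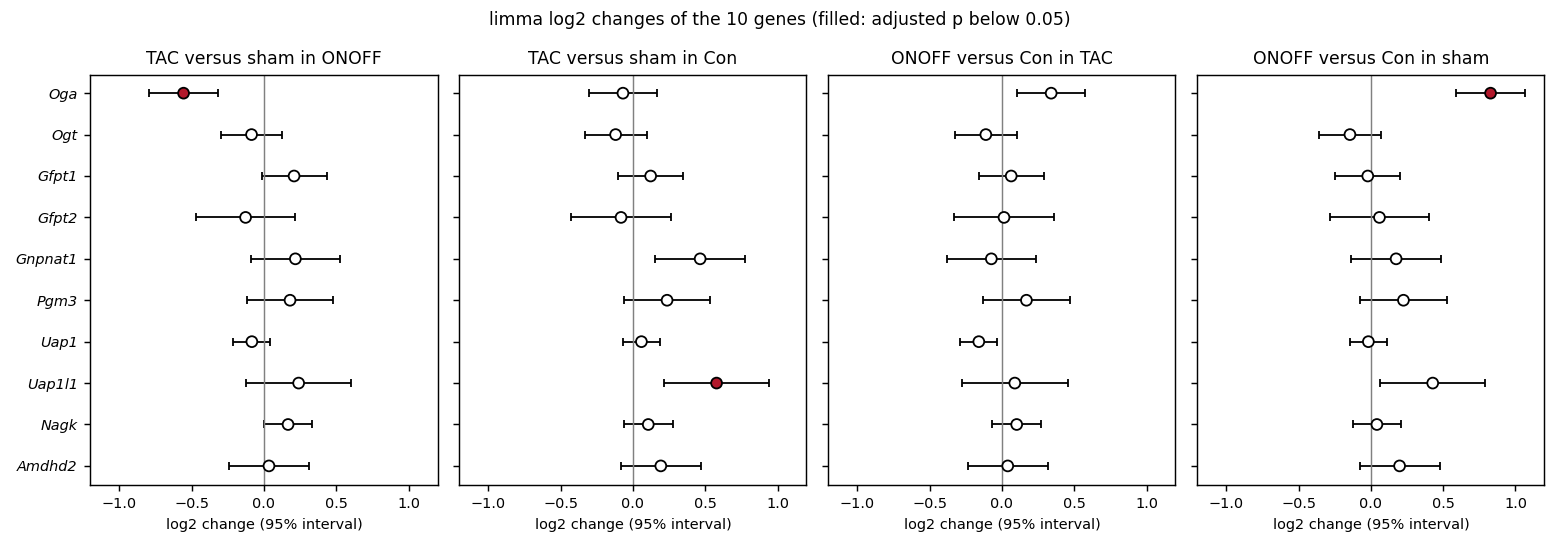
Log2 changes with 95% intervals for the 10 genes in the 4 comparisons between conditions, with filled points where the change was called. The called changes are those of Oga for ONOFF against Con in sham mice (0.83), Oga for TAC in ONOFF mice (−0.56) and Uap1l1 for TAC in Con mice (0.58).

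Counted over the 10 genes, 1 rose and 0 fell with genotype in sham mice, 0 rose and 1 fell with TAC in ONOFF mice, and 1 rose and 0 fell with TAC in Con mice. For ONOFF against Con after TAC, limma called 0 of the 10, against 7.97% of all genes, and 2 had an unadjusted p below 0.05 (Oga and Uap1), against 20.8% of all genes. The interaction called 0 of the 10, against 0.445% of all genes, with 1 unadjusted p below 0.05 (Oga), against 11.4% of all genes. The median change of the 10 was 0.10 for TAC in ONOFF mice and 0.11 for TAC in Con mice, beside 0.01 and 0.02 over all genes. It was 0.12 for ONOFF against Con in sham mice and 0.05 after TAC, beside 0.01 and −0.001 over all genes.

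Within ONOFF Sham, where Oga spread most, Gfpt1 varied with it. Gfpt1 was lowest in female replicates 4 and 1 (539.9 and 542.5 normalized counts) and male replicate 4 (607), the libraries with the lowest Oga, and highest in male replicates 2 and 5 (890.3 and 862), those with the highest Oga. Across the 10 ONOFF Sham libraries Pearson's r of the log2(value + 1) levels, used for all coefficients here, was 0.937 (adjusted permutation p = 0.0036 over 36 relations) and passed. Spearman's rho was 0.879 (adjusted permutation p = 0.0605) and did not pass. Pearson's r was 0.918 after centring each sex (adjusted permutation p = 0.00648) and 0.936 without the 2 libraries farthest from the median of Oga (adjusted permutation p = 0.0274). In ONOFF TAC, Con TAC and Con Sham the coefficients of Oga with Gfpt1 were 0.477, 0.513 and 0.32, and none passed (adjusted permutation p = 0.36, 0.36 and 0.634). The differences between these coefficients were not tested. In ONOFF Sham, Nagk had r = −0.828 with Oga (adjusted permutation p = 0.0578), Ogt 0.788 and Amdhd2 −0.769 (adjusted permutation p = 0.0674 for both), none of which passed. Correlations of this size were common there: 8.96% of 16392 other genes had r of at least 0.75 with Oga and 6.76% had r of −0.75 or less, and 42 genes, Gfpt1 included, had r at or above that of Gfpt1. In the same 10 libraries the summed cardiomyocyte markers had r = −0.819 with Oga and −0.849 with Gfpt1, and the summed macrophage markers −0.872 and −0.776. Their part in the result was not tested.

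**Figure D3:**
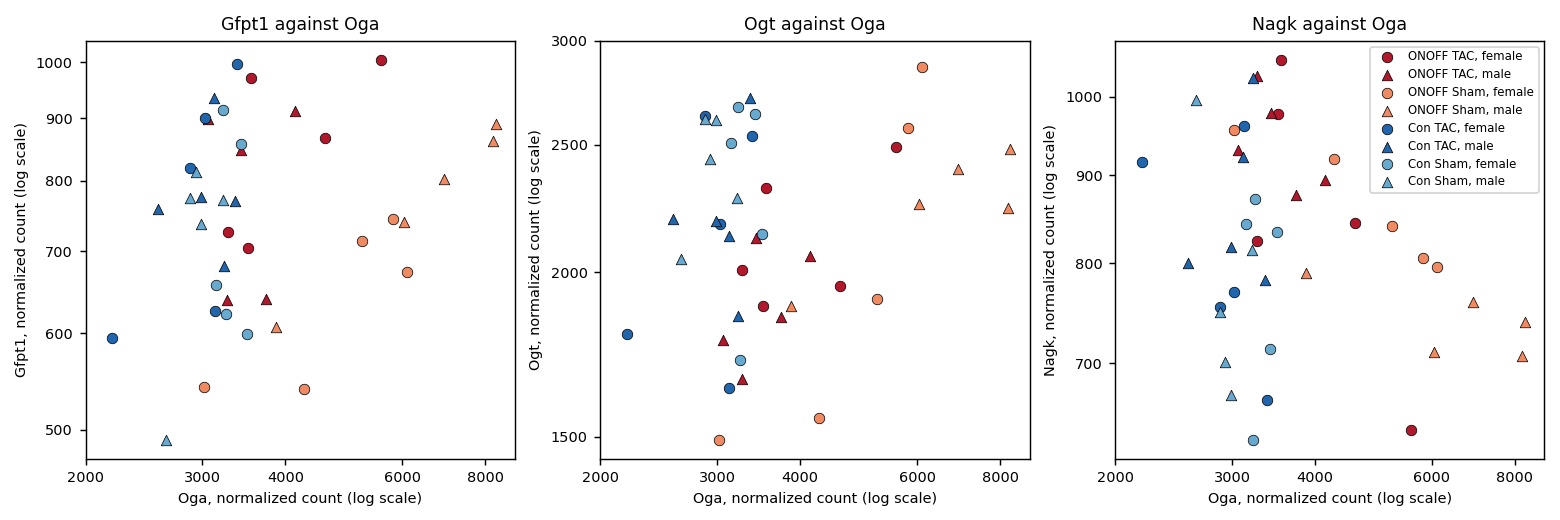
Normalized counts of Gfpt1, Ogt and Nagk against those of Oga, on log axes, 1 point per library, with the 4 conditions in different colours. In ONOFF Sham the points of Gfpt1 rise with Oga (r = 0.937) and those of Nagk fall (r = −0.828). For Gfpt1, r was 0.477 in ONOFF TAC, 0.513 in Con TAC and 0.32 in Con Sham, where Oga runs only from 2644 to 3507. The differences between these coefficients were not tested.

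The 10 genes also varied against each other inside the 8 groups. After subtracting group means, 11 of 45 pairs had adjusted permutation p below 0.05 by both Pearson's r and Spearman's rho (permuted within groups, 40 libraries), 6 positive and 5 negative. The smallest absolute r among these 11 was 0.442, a size reached by 12 of the 45 pairs (26.7%) and by 11.5% of all pairs of the 16395 genes tested. Correlations of this size were thus common among all genes, and whether the shares differ was not tested. Gfpt2 and Uap1 had the highest coefficient, r = 0.79 (rho 0.777, adjusted permutation p = 0.000225 for each, 0.791 without the 2 libraries farthest from the median of Gfpt2). Within conditions it was 0.963 in ONOFF TAC, 0.649 in ONOFF Sham, 0.794 in Con TAC and 0.697 in Con Sham. Gfpt1 instead went with Ogt, r = 0.692 (rho 0.688, adjusted permutation p = 0.0003 and 0.00045, 0.72 without the 2 farthest libraries). Between Gfpt1 and Gfpt2 r was −0.08 over all groups, with differing signs by condition. It was −0.282 in ONOFF TAC, −0.601 in ONOFF Sham, −0.018 in Con TAC and 0.35 in Con Sham. Nagk ran opposite to Ogt, r = −0.66 (rho −0.726, adjusted permutation p = 0.000225 for each), and to Gfpt1, r = −0.646 (rho −0.595, adjusted permutation p = 0.00191 and 0.00486). Uap1l1 went with Amdhd2, r = 0.572 (rho 0.579, adjusted permutation p = 0.0021 and 0.00214). For this pair r was 0.714 in ONOFF TAC, 0.681 in Con TAC and 0.639 in Con Sham, but 0.103 in ONOFF Sham. Oga had r = 0.555 with Ogt and 0.543 with Gfpt1 (adjusted permutation p = 0.00566 and 0.0021). These were highest in ONOFF Sham, where r was 0.782 with Ogt and 0.918 with Gfpt1. With Ogt, r was 0.535 in ONOFF TAC, 0.327 in Con TAC and 0.128 in Con Sham. With Gfpt1, r was 0.421, 0.517 and 0.434 in the same conditions.

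Marker sums moved with the same genes. Within groups, the summed cardiomyocyte markers had r = −0.83 with Gfpt1, −0.68 with Ogt, −0.36 with Oga and 0.65 with Nagk. The summed macrophage markers had r = −0.66, −0.60, −0.30 and 0.25 with these genes, in the same order. The summed erythroid markers had −0.44, −0.41, −0.58 and 0.19, and their coefficient with Oga was the largest of any marker sum for that gene. The summed mesothelium markers had r = 0.49 with Gfpt2 and 0.58 with Uap1, and the summed atrial markers 0.54 and 0.39. The number of genes at 0 had r = −0.57 with Gfpt1 and 0.53 with Nagk. These coefficients over 40 libraries are descriptions, and the part of cell makeup or of library quality in the pairings was not tested.

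**Figure D4:**
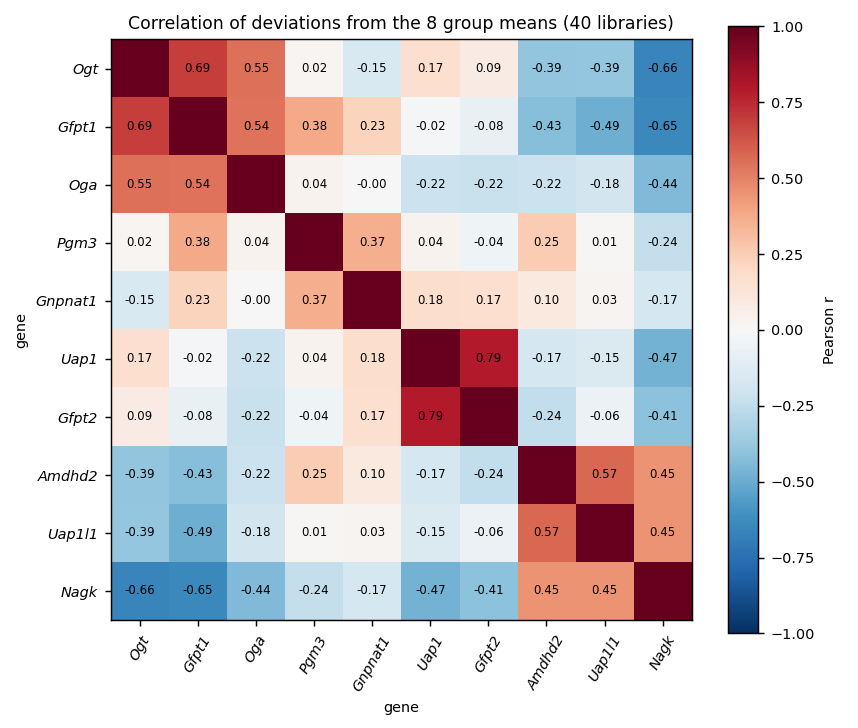
Pearson's r between the 10 genes over 40 libraries after subtraction of the 8 group means. Gfpt2 with Uap1 (0.79) and Ogt with Gfpt1 (0.692) are the highest, and Nagk runs against Ogt (−0.66) and Gfpt1 (−0.646).

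The genes most like the 2 cycling genes and the 2 transaminase genes over all 40 libraries differed. Xrn1 (r = 0.894), Tmem245 (0.88) and Msl2 (0.864) were most like Ogt, and Desi2 (0.9), Aff4 (0.9) and Xpr1 (0.897) most like Gfpt1. For Gfpt2 these were Ugdh (0.745), the dehydrogenase that makes UDP-glucuronate, then Timp3 (0.717) and Lyve1 (0.687), and for Oga they were Tom1l1 (0.599), Krt222 (0.594) and Pxylp1 (0.579). After subtracting group means the coefficients with Ogt were 0.839 to 0.906, those with Gfpt1 0.901 to 0.914, those with Gfpt2 0.687 to 0.793 and those with Oga 0.41 to 0.501.

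The genes around the pathway were counted from 5 lists: 12 genes of glucose and glutamine supply, 10 of uridine nucleotide supply, 11 of amino sugar turnover and sialic acid synthesis, 27 transporters and users of UDP-GlcNAc, and 13 regulators and partners. The lists too were chosen with earlier results of these data known, so their counts beside the shares of all genes are descriptions. For ONOFF against Con in sham mice limma called 0 genes of each list, with 2, 0, 1, 2 and 0 at an unadjusted p below 0.05, against 8.63% of all genes. For ONOFF against Con after TAC limma called 4, 1, 1, 0 and 1 genes of the lists, in the same order, beside 7.97% of all genes. The counts for TAC follow list by list, beside 10.7% of all genes higher and 10.6% lower with TAC in ONOFF mice and 3.17% higher and 2.62% lower in Con mice.

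Of the glucose and glutamine genes, 5 rose and 2 fell with TAC in ONOFF mice and 1 rose and 0 fell in Con mice. Pfkp, the platelet-type phosphofructokinase, averaged 5709 ± 1431 in ONOFF TAC, 2695 ± 484 in ONOFF Sham, 3841 ± 503 in Con TAC and 2469.5 ± 395 in Con Sham (SD, n = 10 each). It rose with TAC by 1.06 in ONOFF mice (SE 0.108, adjusted p = 1.87e-09) and by 0.64 in Con mice (SE 0.108, adjusted p = 0.000176), in 10 of 10 libraries each time. Pfkm, the muscle-type phosphofructokinase, fell by 0.42 in ONOFF mice (log2 change −0.42, SE 0.0582, adjusted p = 7.86e-07). Its values ran from 31610 to 40167 in ONOFF TAC and from 40541 to 50035 in ONOFF Sham. Hexokinase 1 (Hk1) rose by 0.40 in ONOFF mice (SE 0.0669, adjusted p = 2.01e-05), and the insulin-responsive glucose transporter Slc2a4 fell by 0.38 (log2 change −0.38, SE 0.065, adjusted p = 2.89e-05), each in 10 of 10 libraries. After TAC, ONOFF stood above Con for Pfkp (0.54, adjusted p = 0.00102) and Hk1 (0.22, adjusted p = 0.0347) and below Con for Pfkm (−0.28, adjusted p = 0.00182) and Slc2a4 (−0.23, adjusted p = 0.0253). The last calls of Hk1 and Slc2a4 were lost in 9 and 5 of 40 omissions of a single library, and in 4 and 2 of 13 other settings. Hk1 was the 1 gene of the 5 lists called for the interaction (0.40, SE 0.0946, adjusted p = 0.0457), beside 0.445% of all genes. That call was lost in 24 of 40 omissions of a library and in 5 of 12 other settings. The list's median TAC change was 0.17 in ONOFF mice and 0.03 in Con mice.

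Uridine supply moved in both directions. Uck2, a kinase that salvages uridine and cytidine, averaged 4076 ± 1415 in ONOFF TAC, 1254 ± 293 in ONOFF Sham, 1915 ± 425 in Con TAC and 1068 ± 249 in Con Sham (SD, n = 10 each). TAC and sham libraries did not overlap for Uck2 in either genotype (the share of all genes that separate so was not counted). It rose with TAC by 1.65 in ONOFF mice (SE 0.157, adjusted p = 6e-10) and by 0.85 in Con mice (SE 0.157, adjusted p = 0.000567), and ONOFF TAC exceeded Con TAC by 1.04 (SE 0.157, adjusted p = 4.75e-05). Cad, the enzyme that starts pyrimidine synthesis from glutamine, fell by 0.60 in ONOFF mice (log2 change −0.60, adjusted p = 0.00372) and by 0.64 in Con mice (log2 change −0.64, adjusted p = 0.00893). Dhodh, a later enzyme of that route, fell by 0.42 in ONOFF mice (log2 change −0.42, adjusted p = 0.00203), and Uck1, a second uridine kinase, by 0.29 (log2 change −0.29, adjusted p = 0.006). Of the 10 genes, 1 rose and 3 fell in ONOFF mice and 1 rose and 1 fell in Con mice, with medians of 0.01 and 0.10.

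Amino sugar turnover genes were called in 1 direction. With TAC, 5 of 11 rose and 0 fell in ONOFF mice, and 2 rose and 0 fell in Con mice, with medians of 0.21 and 0.04. Hexa, a lysosomal hexosaminidase subunit, averaged 3447 ± 282 in ONOFF TAC, 2665 ± 346 in ONOFF Sham, 2867 ± 270 in Con TAC and 2305 ± 221 in Con Sham (SD, n = 10 each). It rose with TAC by 0.38 in ONOFF mice (SE 0.0639, adjusted p = 2.2e-05) and by 0.31 in Con mice (SE 0.0639, adjusted p = 0.00172), and ONOFF TAC exceeded Con TAC by 0.27 (adjusted p = 0.00588). In ONOFF mice Nans, the sialic acid synthase, rose by 0.35 (adjusted p = 0.00359), and Gnpda1, which returns glucosamine 6-phosphate to fructose 6-phosphate, by 0.38 (adjusted p = 0.00387). Cmas, which activates sialic acid, rose by 0.24 in Con mice (adjusted p = 0.033). The call of Cmas was lost in 5 of 40 omissions of a single library and in 3 of 13 other settings.

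The last lists held the genes that consume UDP-GlcNAc and those that act with OGT and OGA. Of 27 transporters and users, 3 rose and 0 fell with TAC in ONOFF mice: Mgat1, the transferase that starts complex N-glycans (0.18, adjusted p = 0.0107), Has1, a hyaluronan synthase (1.81, adjusted p = 0.0167), and the nucleotide sugar transporter Slc35b4 (0.25, adjusted p = 0.0414). Has1 was low, at most 25.4 normalized counts, and its change was 0.74 with a pseudocount of 10 in place of 1 (adjusted p = 0.00585). The call of Slc35b4 was lost in 9 of 40 omissions of a single library and in 3 of 13 other settings. In Con mice limma called 0 of the 27, with 2 at an unadjusted p below 0.05, against 19.9% of all genes. Of 13 regulators and partners, 3 rose and 2 fell in ONOFF mice and 1 rose and 0 fell in Con mice. Atf4, a stress transcription factor, rose by 0.39 in ONOFF mice (adjusted p = 0.000431) and by 0.41 in Con mice (adjusted p = 0.00122), in 10 of 10 libraries each time. In ONOFF mice Trak2, a mitochondrial transport adaptor that binds OGT, rose by 0.44 (adjusted p = 0.00183), while Hcfc1, a cofactor that OGT cleaves, fell by 0.17 (log2 change −0.17, adjusted p = 0.0107) and Tet1, a DNA demethylation enzyme that binds OGT, by 0.67 (log2 change −0.67, adjusted p = 0.0315, lost in 7 of 40 omissions). After TAC, Trak2 stood above Con in ONOFF mice by 0.33 (SE 0.105, adjusted p = 0.0412, higher in 9 of 10 libraries), a call lost in 12 of 40 omissions and in 5 of 13 other settings. Summed values of 6 fibroblast markers, all detected, were 69663 to 92292.9 in ONOFF TAC, 47440.5 to 64320.3 in ONOFF Sham, 44455.1 to 86740.5 in Con TAC and 42321.4 to 66771.3 in Con Sham. The 6 cardiomyocyte markers summed to 1498180 to 2102820 in ONOFF TAC, 2008640 to 3000210 in ONOFF Sham, 1788740 to 3457520 in Con TAC and 1995630 to 3226510 in Con Sham. Their part in the TAC changes was not tested.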

How the data were processed

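Per the submitters' processing notes, FastQC 0.11.7, MultiQC 0.8, STAR 2.7.3a, Salmon, R 4.3.1 and DESeq2 were used with the build GRCm39, and their roles are not given in the sources used here. Libraries were stranded, per the labels' protocols. The authors deposited a single matrix of normalized count signal for 22676 genes and 40 libraries, matched to the labels by library name. Between 30.4% and 67.2% of the low values lay within 0.05 of a whole multiple of 1 best step, so whole reads were not recovered and depth is unknown.

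Values were transformed as log2(value + 1). A gene was kept if 5 or more libraries had a value of 10 or higher. A linear model with 1 mean for each of the 8 groups was fitted in limma 3.58.1 (R 4.3.3), with trended and robust variance moderation. The 17 contrasts gave two-sided p-values, adjusted by Benjamini-Hochberg over 16395 genes, with 0.05 as the threshold. Counts such as 9 of 10 libraries set each library against the mean of its own sex in the other condition. Correlations used permutations (100000), adjusted over 36 relations of Oga or 45 pairs of genes. The limma fit of the 5 comparisons that average the sexes was tested on simulated data, with noise drawn independently for each gene. The correlations were not tested in this way.

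The 10 genes and the lists were chosen with earlier results of these data known. All 10 are named in every case. Of each neighbouring list, up to 4 called genes with the smallest p per comparison are named, and for Oga, Ogt, Gfpt1 and Gfpt2 the 3 genes with the highest r over all 40 libraries, predicted genes left out. 1 gene that the rule took is not reported here. The fit was repeated after quantile normalization, after rescaling by trimmed means (TMM), with a pseudocount of 10, without the filter, with a filter on means of 50, with library weights, with sex as an additive term, on only those groups compared, with 2 kinds of block (statmod 1.5.0), without libraries that stood apart, and after omission of each library in turn. Promoter letters came from a RefSeq table. Ctps was not analysed here. The work used the R package data.table (1.17.8) and, for figures, Python 3.11.15, numpy 2.4.6, pandas 2.3.3, scipy 1.17.1 and matplotlib 3.10.9.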

Additional observations from a re-analysis of the deposited data

Results flagged for a closer look

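Among 80 sets of 5 libraries (10 genes in 8 groups), 5 held a library far from the others by Dixon's criterion, and chance alone flags about 1 in 20 such sets. Replicate 4 of Con Sham males had 491 normalized counts of Gfpt1, against 737 to 813 in the other 4 males, and 137 of Gnpnat1, against 307 to 374. Replicate 5 of Con Sham females had 746 of Uap1l1, against 313 to 359.8. Both libraries are among the 3 with many genes at 0. In ONOFF Sham females, replicate 4 had 529.5 of Gnpnat1, against 302 to 341 in the others, and replicate 1 had 384 of Amdhd2, against 236 to 264.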

How the results depend on the processing

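Of 640 comparisons of a log2 change under 13 settings other than single omissions, 614 kept their direction and side of the threshold. The calls of Oga for ONOFF against Con in sham mice and for TAC in ONOFF mice held under every one (0.82 to 0.91 and −0.64 to −0.56) and in all 40 single omissions (0.78 to 0.92 and −0.65 to −0.51). For TAC in Con mice the number of the 10 genes called was 0 with no filter, quantile normalization, only the groups compared, without the 2 libraries poor in Xist and without all 5 libraries that stood apart, and 2 (Gnpnat1, Uap1l1) without the 3 with many zeros. With library weights the 1 gene called was Gnpnat1. With library weights 2 genes were called for TAC in ONOFF mice (Oga, Nagk), 2 for ONOFF against Con after TAC (Oga, Uap1) and 1 for the interaction (Oga, −0.55, adjusted p = 0.0342). With only the groups compared, 1 was called for ONOFF against Con after TAC (Oga). Single omissions gave 0 to 2 for TAC in Con mice (0 in 22 of 40), 1 to 2 for TAC in ONOFF mice (2 without ONOFF TAC female replicate 2), 1 to 1 for genotype in sham mice, 0 to 1 for genotype after TAC (Oga without ONOFF Sham female 1, ONOFF TAC female 1 or ONOFF Sham male 4, Uap1 without Con TAC male 1) and 0 to 0 for the interaction and the sex differences. The cause was not tested.

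Replicate numbers did not pair libraries: of 10 same-numbered pairs per comparison, 0 to 1 had a correlation of deviations over 0.1. The replicate block left 0 of the 10 genes called for TAC in Con mice (Uap1l1, adjusted p = 0.0588) and changed no other call of the 10.

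Reversals were all among changes that did not pass. With library weights, Gfpt2 was −0.043 (genotype, sham) and −0.23 (genotype, TAC), and Ogt −0.0031 (interaction). Without the 3 libraries with many zeros, Gfpt1 was −0.021 (TAC, Con), Gfpt2 −0.0032 (genotype, sham) and 0.018 (interaction), Pgm3 0.024 and Nagk −0.031 (interaction). The interaction of Gfpt2 was 0.11 without the 2 libraries poor in Xist. Without all 5, Gfpt2 was −0.0032 (genotype, sham) and 0.17 (interaction), and Nagk −0.012 (interaction). Single omissions spanned 0 for Amdhd2 (−0.019 to 0.10 for genotype after TAC, −0.025 to 0.095 for TAC in ONOFF), Gfpt1 (−0.087 to 0.022, genotype, sham), Gfpt2 (−0.061 to 0.084 for genotype after TAC, −0.0043 to 0.13 in sham, −0.12 to 0.025 for the interaction), Gnpnat1 (−0.12 to 0.0096, genotype after TAC), Uap1 (−0.046 to 0.0019, genotype, sham), and for the interaction Ogt (−0.020 to 0.098) and Pgm3 (−0.12 to 0.078).

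Over all genes, the interaction called 73, against 30 with no filter, 120 with quantile normalization, 449 with weights, 32 with the library-name number as a block, and 131, 151 and 441 without the 3, 2 and 5 libraries. Genotype in sham mice called 23, against 13 (no filter), 47 (weights), 12 (groups compared), 14 (replicate block), and 2 and 4 without the 3 and 5. TAC in Con mice called 948, against 495 (groups compared), 582 and 614 (without the 2 and 5), TAC in ONOFF mice 3480, against 5266 (weights), and genotype after TAC 1306, against 2355 (weights). Genotype in sham mice, male minus female, called 0, against 1 with either block. Applied after the values were seen, the same settings and omissions kept 26 of 38 called changes of neighbouring genes and reversed 0. Unknown depth allows no counting intervals.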
